A study of Mus musculus with 2 samples.

Results

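Microglia and brain macrophages were examined in the single-cell RNA sequencing libraries of newborn mouse brain. The cells were found by their transcripts. Barcodes with at least 500 detected genes and at most 10% of their UMIs (unique molecular identifiers, which count RNA molecules) from mitochondrial genes were kept. Among these, a cell was taken when C1qa, C1qb and C1qc together had at least 5 UMIs, when Csf1r, Tyrobp and Fcer1g together had at least 2, when the endothelial genes Cldn5, Flt1 and Pecam1 together had fewer than 5, and when the neuronal genes Neurod2 and Neurod6 together had at most 2. The rule found 84 of 12846 kept cells (0.654%), of which 56 were among 6766 WT and 28 among 6080 STING cKO cells. Both libraries came from C57BL/6 mice at P0, from tissue labelled telencephalic, which the study's methods describe as cerebral cortex dissociated with papain. The STING cKO animals were STINGf/f;Nestin-Cre, in which the floxed gene of the DNA-sensing adaptor STING (Tmem173) is removed by a Cre recombinase under Nestin control, a driver of neural progenitors and their progeny. Microglia come from another lineage, so the cells described here lie outside the cells the driver is meant to reach. The control library is labelled WT, and the number of animals behind each library is not given in the sources used here. With 1 library per genotype there was no replicate check and no test was possible. Intervals below are 95% intervals. They cover counting error only, or for shares of cells the drawing of cells within a library as if independent. A difference between the libraries cannot be told apart from a difference between the genotypes.

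Microglia are the resident macrophages of the brain. They descend from yolk-sac progenitors, enter the brain early in embryonic life, renew there under CSF1R signalling, and clear dying cells and synaptic material during development. They sense their surroundings through receptors for nucleotides (P2RY12, P2RY13, P2RY6), for fractalkine (CX3CR1) and for lipids (GPR34, TREM2), and they secrete complement C1q. Border-associated macrophages of the meninges and perivascular spaces share C1q and CSF1R with them but carry Mrc1, Pf4 and Lyve1 and little P2ry12. Around birth a part of the microglia in proliferative white-matter regions is amoeboid, cycles, and expresses Spp1, Igf1, Gpnmb and chemokines.

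In all, the members carried 665326 (WT) and 422345 (cKO) UMIs, with a median of 10178.5 and 12470 UMIs per cell and of 3103 and 3224 genes. The other kept cells had a median of 6622.5 and 7619 UMIs. The median share of mitochondrial UMIs was 6.32% and 7.71%, and its part in the differences below was not tested. No member barcode was among the 19 that the libraries share. The libraries also differed in sex-linked RNA: Xist, which silences an X chromosome in females, had 0 UMIs in the WT members and 286 in the cKO members, so that sex and genotype cannot be told apart. Tmem173 itself had 23 UMIs in 16 of the 56 WT members (34.6 CPM, a scale on which 100 CPM equal 1 UMI per 10000 UMIs of the members) and 3 UMIs in 3 of the 28 cKO members (7.10 CPM), a log2 ratio of -2.28 with an interval from -4.66 to -0.56. The level of Tmem173 was 1.89 and 0.27 CPM in the other kept cells, and 21.5 and 9.16 CPM in 189 and 73 cells with endothelial markers. Whether the counted 3′ ends lie in the removed part of the gene is not given in the sources used here.

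Promoter sequences are shown for a pair of neighbouring receptor genes and a pair of neighbouring C1q genes, whose levels the results below compare. P2ry12 and P2ry13 were both lower in the cKO members and are neighbours on chromosome 3, where P2ry13 (59207892 to 59210882) and P2ry12 (59216272 to 59262871) lie on the minus strand with 5389 bases between them, both inside Med12l on the plus strand, which had 19 and 9 UMIs in the members (GENCODE annotation of GRCm38). C1qb and C1qc, which define the members, lie on chromosome 4 beside C1qa, also on the minus strand, at 136880129 to 136886187, 136889804 to 136893065 and 136895917 to 136898803 for C1qb, C1qc and C1qa. Each sequence runs from 250 bases before to 50 after the start of transcription in RefSeq (GRCm38.p6), in the order chr3:59262936-59263235, chr3:59210833-59211132, chr4:136886151-136886450 and chr4:136892865-136893164, all minus strand. Capitals mark AGGAAG or its complement on the other strand, a purine-rich core of the kind bound by the myeloid factor PU.1 (Spi1).
P2ry12: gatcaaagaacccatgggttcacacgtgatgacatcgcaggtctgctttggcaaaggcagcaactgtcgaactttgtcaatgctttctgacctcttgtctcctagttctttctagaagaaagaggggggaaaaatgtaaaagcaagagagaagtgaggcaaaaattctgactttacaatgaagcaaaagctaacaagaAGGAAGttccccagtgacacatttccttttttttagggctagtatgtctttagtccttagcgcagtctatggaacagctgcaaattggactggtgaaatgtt
P2ry13: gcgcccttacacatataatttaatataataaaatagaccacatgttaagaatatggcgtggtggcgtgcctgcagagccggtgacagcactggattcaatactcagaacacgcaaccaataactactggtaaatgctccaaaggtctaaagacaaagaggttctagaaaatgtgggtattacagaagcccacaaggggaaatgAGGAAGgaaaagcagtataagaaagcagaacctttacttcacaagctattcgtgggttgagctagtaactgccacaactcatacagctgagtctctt
C1qb: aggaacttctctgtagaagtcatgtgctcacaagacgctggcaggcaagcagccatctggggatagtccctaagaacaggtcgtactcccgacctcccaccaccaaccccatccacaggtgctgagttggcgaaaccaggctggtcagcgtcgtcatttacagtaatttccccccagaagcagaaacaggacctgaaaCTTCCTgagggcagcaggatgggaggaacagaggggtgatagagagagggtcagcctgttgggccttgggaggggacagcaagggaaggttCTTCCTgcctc
C1qc: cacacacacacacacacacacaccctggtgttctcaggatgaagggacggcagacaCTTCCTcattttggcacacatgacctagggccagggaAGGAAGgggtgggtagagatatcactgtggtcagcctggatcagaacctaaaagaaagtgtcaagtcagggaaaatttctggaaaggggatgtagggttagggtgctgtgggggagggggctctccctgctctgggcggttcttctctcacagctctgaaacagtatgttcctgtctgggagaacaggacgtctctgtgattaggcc
The same letters occurred in 35.4% of all 32851 promoters of this length. Of 20 genes of interest looked for, 14 had an entry and 10 of these held a match in at least 1 of their promoters, a count of genes that cannot be set against the share of promoters. The first match lay 52 bases before the start in P2ry12 and C1qb and 47 before it in P2ry13. The match is a description of these windows, and genes that were lower (P2ry12, P2ry13) and genes that were not (C1qb, C1qc) both held it. Cx3cr1 and Ccr1, which were lower, held none, and neither did Ccl3 and Ctsd, which were higher.

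The counts that chose the members are given as a description. Their C1q sum had a lowest, median and highest value of 5, 128 and 338 UMIs per WT cell and 9, 198 and 392 per cKO cell. Values left a gap inside the members, from 11 to 61 UMIs in the WT and from 28 to 57 in the cKO library, with 51 and 25 members at 50 or more. The 5 WT members below the gap had 5 to 11 UMIs and ran on from the cells outside the rule. The 3 cKO members below it had 9, 14 and 28. The cKO member with 14 had 13 UMIs of a homeostatic microglia list and 41 of a neuron list among its 9159, so that its type is uncertain. Just outside the rule lay 7 WT cells and 1 cKO cell with a C1q sum of 3 or 4 that met the other limits, and 3 and 4 cells with 5 or more that exceeded the limit on Neurod2 and Neurod6. A C1q sum of 0 was found in 6617 and 6001 kept cells.

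Genes that the rule did not use were also high in these cells, which is a description and no test. The 20 genes with the largest excess over the other kept cells, which include the rule genes, included the cathepsins Ctss and Ctsd, legumain (Lgmn), the lipid receptor Trem2, the Fc receptor-like gene Fcrls, Ly86, Laptm5, Fcgr3, Crybb1, Unc93b1, Spp1, P2ry12 and the transcription factor Spi1. Trem2, for example, reached 1099 CPM in the WT and 1714 CPM in the cKO members and had a UMI in 52 of 56 and 28 of 28 of them. P2ry12 had a UMI in 53 of 56 and 26 of 28 members, against 0.21% and 0.18% of the other kept cells. Markers of other blood-derived cells were nearly absent. The 9 genes of the lymphocyte and mast cell list had no UMI in any member, the 8 of the monocyte list had 10 and 9 UMIs in all, and the 7 of the dendritic cell list had 4 and 5. Of the granulocyte list, Csf3r made up 38 of 40 and 15 of 15 UMIs, and S100a9 had none. RNA of other brain cells was present at a low level in sum: the neuron list reached 612 CPM in the WT and 549 CPM in the cKO members, against 8710 and 8772 CPM in the other kept cells. It was uneven over cells. A scored doublet held 108 of the 407 neuron-list UMIs of the WT members. Of the 232 in the cKO members, 59 and 41 were in single cells. The progenitor and astroglia list had 492 and 281 UMIs in the members, the oligodendrocyte precursor list 35 and 7, the endothelial list 19 and 9, the mural list 8 and 7 and the fibroblast list 3 and 1. Of the 35 oligodendrocyte precursor UMIs, 31 were in 1 WT cell scored as a doublet. Of the haemoglobin UMIs of the WT members, 3179 of 3183 were in 1 cell.

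The share of microglia and macrophages was 0.828% of the kept WT cells (interval 0.626 to 1.07%, Clopper-Pearson) and 0.461% of the kept cKO cells (0.306 to 0.665%). The difference was -0.367 percentage points and the log2 ratio -0.85 (-1.56 to -0.17). Cells with endothelial markers numbered 189 and 73, and whether capture of non-neural cells differed between the dissociations was not tested. Without the members that had at least 5 UMIs of a border-macrophage list, 25 and 19 cells remained and the difference was -0.057 points. The members left out were deeper as a group, and only 3 WT and 0 cKO members had at least 10 Pf4 UMIs. The cut is on a score that grows with depth and does not single out macrophages.

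Gpr34, Cx3cr1 and the P2Y receptors P2ry12, P2ry13 and P2ry6 were lower in the cKO members, the ATP-gated receptors P2rx4 and P2rx7 were not, and C1q and the receptor components Csf1r, Tyrobp and Fcer1g lay within 0.35 of the WT level on the log2 scale. Gpr34, a receptor for lysophosphatidylserine encoded on the X chromosome, had 0, 7.06 and 23.9 UMIs per 10000 (lowest, median and highest WT cell) and 0, 1.47 and 6.15 in the cKO cells. The highest cKO value was 1 UMI in a cell of 1626 UMIs. The 28 cKO cells all lay below the WT median, and 49 of 56 WT cells lay above the cKO median. Summed over cells, Gpr34 had 543 UMIs (816 CPM) and 65 UMIs (154 CPM), a log2 ratio of -2.41 (-2.80 to -2.03). In the other kept cells it was at 0.66 and 0.16 CPM.

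P2ry12, the purinergic receptor that steers microglial processes towards ADP, had 0, 15.0 and 47.2 UMIs per 10000 in the WT cells and 0, 5.97 and 32.7 in the cKO cells. The ranges overlapped, with 25 of 28 cKO cells below the WT median, and the highest WT value was 5 UMIs in a cell of 1060. The sums were 990 UMIs (1488 CPM) and 249 UMIs (589.6 CPM), a log2 ratio of -1.34 (-1.54 to -1.13). Cx3cr1, the receptor for neuronal fractalkine, showed the same order, with a median of 11.4 and 4.05 UMIs per 10000, 27 of 28 cKO cells below the WT median and a log2 ratio of -1.54 (-1.79 to -1.30). P2ry13, an ADP receptor like its neighbour P2ry12, had 91 UMIs in 39 of 56 WT cells and 6 UMIs in 5 of 28 cKO cells, a log2 ratio of -3.27 (-4.75 to -2.09). P2ry6, the receptor for UDP that triggers phagocytosis, had 122 and 24 UMIs, a log2 ratio of -1.69 (-2.39 to -1.05).

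**Figure D1:**
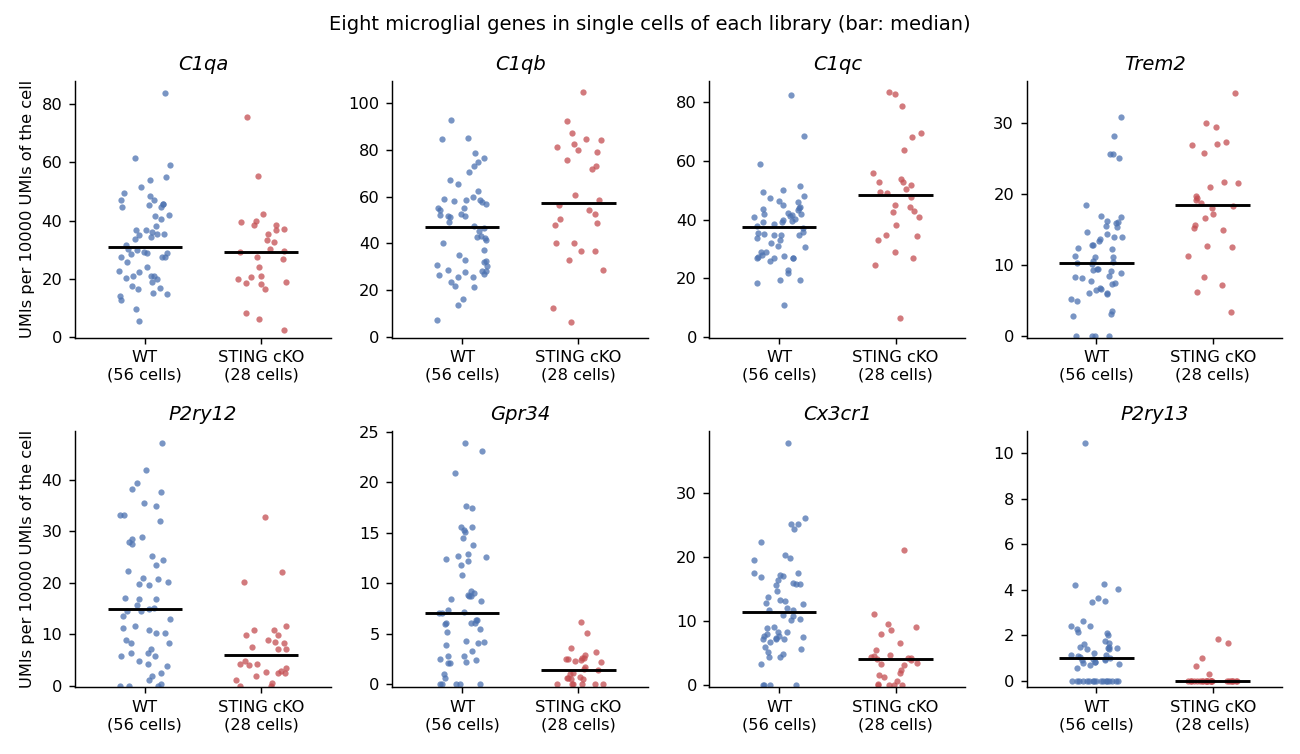
UMIs of 8 genes per 10000 UMIs of each cell, in the 56 WT and 28 STING cKO cells. Each point is a cell and the bar is the median. C1qa lies at a median of 30.9 and 29.3, whereas Gpr34 lies at 7.06 and 1.47 with no cKO cell above the WT median.

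Detection was compared at equal depth. When every cell was thinned to 2000 UMIs, which left 51 WT and 27 cKO cells, a Gpr34 UMI was found in 72.5% of the former (58.3 to 84.1%) and 33.3% of the latter (16.5 to 54.0%), against 91.1% and 78.6% before thinning. For P2ry12 the thinned shares were 88.2% (76.1 to 95.6%) and 59.3% (38.8 to 77.6%), for P2ry13 27.5% (15.9 to 41.7%) and 7.41% (0.91 to 24.3%). The intervals overlapped for P2ry12 and P2ry13 and not for Gpr34, but they take the cells of 1 library as independent draws. They rest on 1 random thinning and cannot show a difference between genotypes. At 1000 UMIs the difference was -7.34 percentage points for P2ry13, against -20.0 at 2000, and -31.2 for Gpr34, against -39.2. Of the other kept cells, 0.12% and 0.07% had a Gpr34 UMI. The differences depended on the cell filter. With at least 1000 genes and at most 5% mitochondrial UMIs only 5 WT and 2 cKO cells were left, and P2ry12 on log2(CPM + 10) was then at 0.20, Cx3cr1 at -0.30 and Gpr34 at -1.84. The medians of the homeostatic and receptor lists described below were then at 0.46 and 0.20, on the other side of 0. Among the 5 WT cells left was a cell with 142 Pf4 and 0 P2ry12 UMIs, as in border macrophages. Another, scored as a doublet, had 3190 UMIs of erythroid genes. The part of these cells in the turned directions was not tested.

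C1qa had 5.41, 30.9 and 83.9 UMIs per 10000 in the WT cells and 2.18, 29.3 and 75.5 in the cKO cells, a log2 ratio of -0.07 (-0.17 to 0.03). C1qb and C1qc had log2 ratios of 0.32 (0.24 to 0.40) and 0.35 (0.26 to 0.44). The chains of C1q, the recognition molecule of the classical complement pathway, are assembled together. Over the cells with at least 2000 UMIs, C1qa correlated with C1qb at r = 0.78 in 51 WT and r = 0.69 in 27 cKO cells, and with C1qc at r = 0.82 and r = 0.46, in cells that these genes chose and that share library and depth. The ratio was -0.19 (-0.34 to -0.04) for Csf1r, the growth-factor receptor on which microglia depend, -0.04 (-0.14 to 0.06) for the signalling adaptor Tyrobp and -0.10 (-0.21 to 0.02) for Fcer1g. As these genes chose the cells, their levels are a description.

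**Figure D2:**
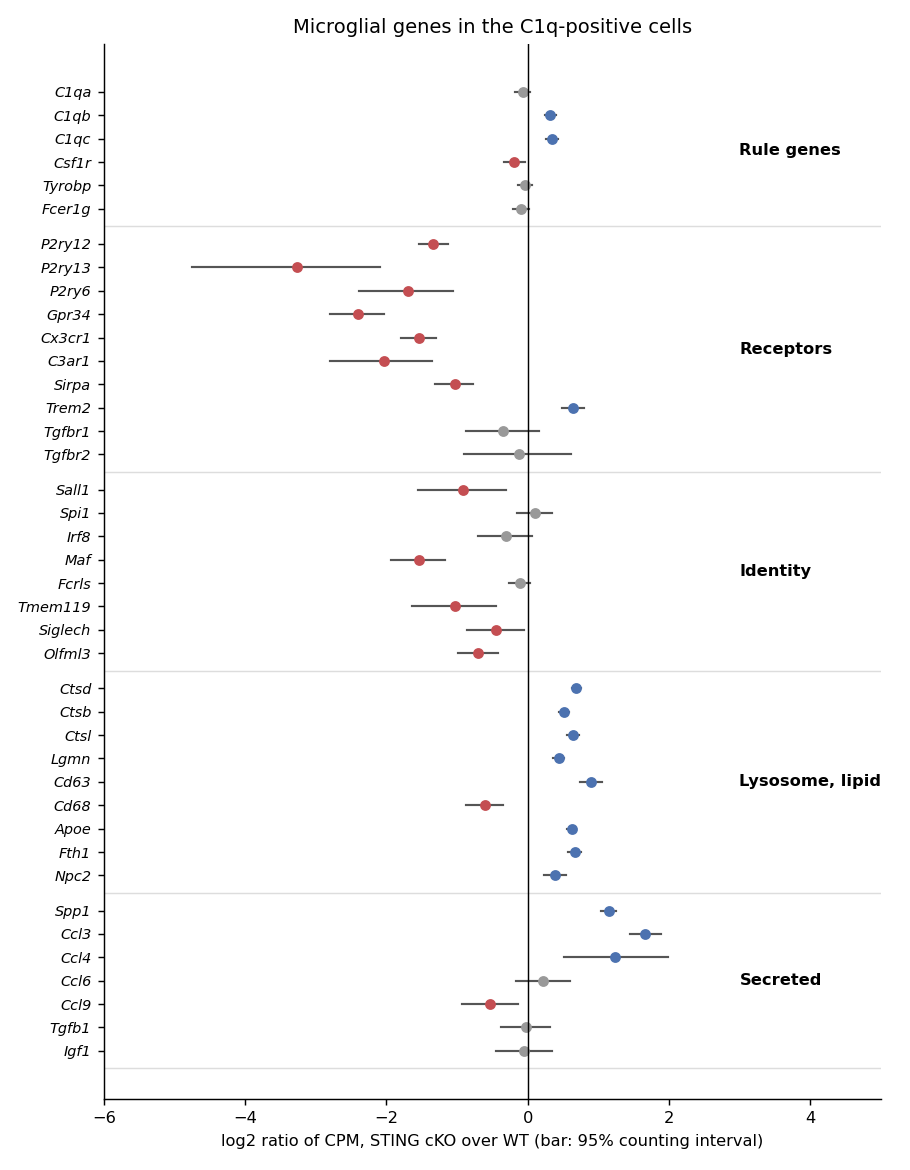
Log2 ratio of CPM, STING cKO over WT, in the summed cells for 40 genes grouped by role, with 95% counting intervals. Red points have an interval below 0, blue points above 0 and grey points an interval that includes 0. P2ry12, P2ry13, P2ry6, Gpr34, Cx3cr1 and C3ar1 lie below -1, Trem2 and the cathepsins above 0.

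Across whole gene lists, a gene was counted as past 2-fold when it had at least 10 UMIs in the members of both libraries summed and differed by a factor of 2 on log2(CPM + 10). Of the 7980 genes measured in this way, 233 (2.92%) were past 2-fold higher and 587 (7.36%) past 2-fold lower in the cKO members, 10.3% in all, and the median of all of them was -0.06. A gene with fewer than 10 UMIs in 1 library and more in the other passed this minimum only through the library where it was high, so that its being counted supports nothing by itself. Such genes include P2ry13, Slc2a5, C5ar1, Ccr1, Cd200r1, Il18, Ccl24, Tmem173, Ifi204 and Mcm4, which passed through the WT library, and Axl, Cxcl16 and Per1, which passed through the cKO library. In the other kept cells 0.288% of the same genes were higher and 2.62% lower (2.91% in all), over far more UMIs. Of the 20 homeostatic microglia genes, 0 were past 2-fold higher and 7 lower (P2ry12, P2ry13, P2ry6, Cx3cr1, Gpr34, the fructose transporter Slc2a5 and the selectin ligand Selplg), and the list had a median of -0.55. The 13 within 2-fold included Fcrls at -0.11, the lectin Siglech at -0.42, the extracellular matrix gene Olfml3 at -0.68, the transcription factor Sall1, which maintains microglial identity, at -0.83, and Tmem119 at -0.94, all on log2(CPM + 10). Under the stricter cell filter, the few WT cells left include the Pf4 cell and the cell scored as a doublet named above. There 2 homeostatic genes were past 2-fold lower, and Sall1 and Tmem119 were at 1.98 and 1.45. The summed level of the list was 16753 and 14846 CPM, a log2 ratio of -0.17 (-0.22 to -0.13). The list also holds the rule gene Csf1r.

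Of 24 measured receptors of microglia, 8 were past 2-fold lower and 1 higher, with a median of -0.32. P2ry12, P2ry13, P2ry6, Cx3cr1, Csf1r, Tgfbr1 and Tgfbr2 are on the homeostatic list too, so the results of these lists are not separate. Beside the receptors above, the lower ones included the chemokine receptor Ccr1 (26 and 1 UMIs), the receptor for CD47 Sirpa (497 and 154 UMIs, log2 ratio -1.03, -1.30 to -0.77) and Cd200r1 (13 and 2 UMIs, with an interval that includes 0). With a minimum of 30 UMIs 6 receptors were lower, and under the stricter cell filter, which left 5 WT and 2 cKO members, 0 were. Axl, a receptor for apoptotic cells, had 7 and 18 UMIs and was the receptor counted as higher. Under that filter it had 0 UMIs in both libraries. The transforming growth factor beta receptors, which sustain the microglial programme, were near the level of the WT members, with a log2 ratio of -0.34 (-0.87 to 0.16) for Tgfbr1 and -0.13 (-0.90 to 0.62) for Tgfbr2. Of the channels that ATP opens, P2rx4 was at 0.07 (-0.62 to 0.75) and P2rx7 at 1.09 (0.12 to 2.09) with 17 and 23 UMIs. Tlr7, the endosomal sensor of single-stranded RNA, was at 1.07 (0.44 to 1.71) with 39 and 52 UMIs. Tlr7 was higher in the other kept cells too, by 1.84.

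The receptors for the complement peptides C3a and C5a were also lower. C3ar1 had 129 UMIs in 35 WT cells and 20 UMIs in 13 cKO cells, a log2 ratio of -2.03 (-2.79 to -1.35). C5ar1 had 53 UMIs in 25 WT cells and 1 UMI in the cKO cells, a ratio of -5.07 with an interval from -10.40 to -2.53. Gpr84, a receptor for medium-chain fatty acids, had 32 UMIs in 20 WT cells and 0 in the cKO cells, where a count of 0 allows up to 7.10 CPM. Its WT level was 6.77-fold that limit, a figure that leaves out the counting error of the WT count. Gpr84 reached the minimum only through the WT library. Of the 8 measured genes of the complement list, C3ar1 and C5ar1 were the 2 past 2-fold lower and 0 were higher.

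**Figure D3:**
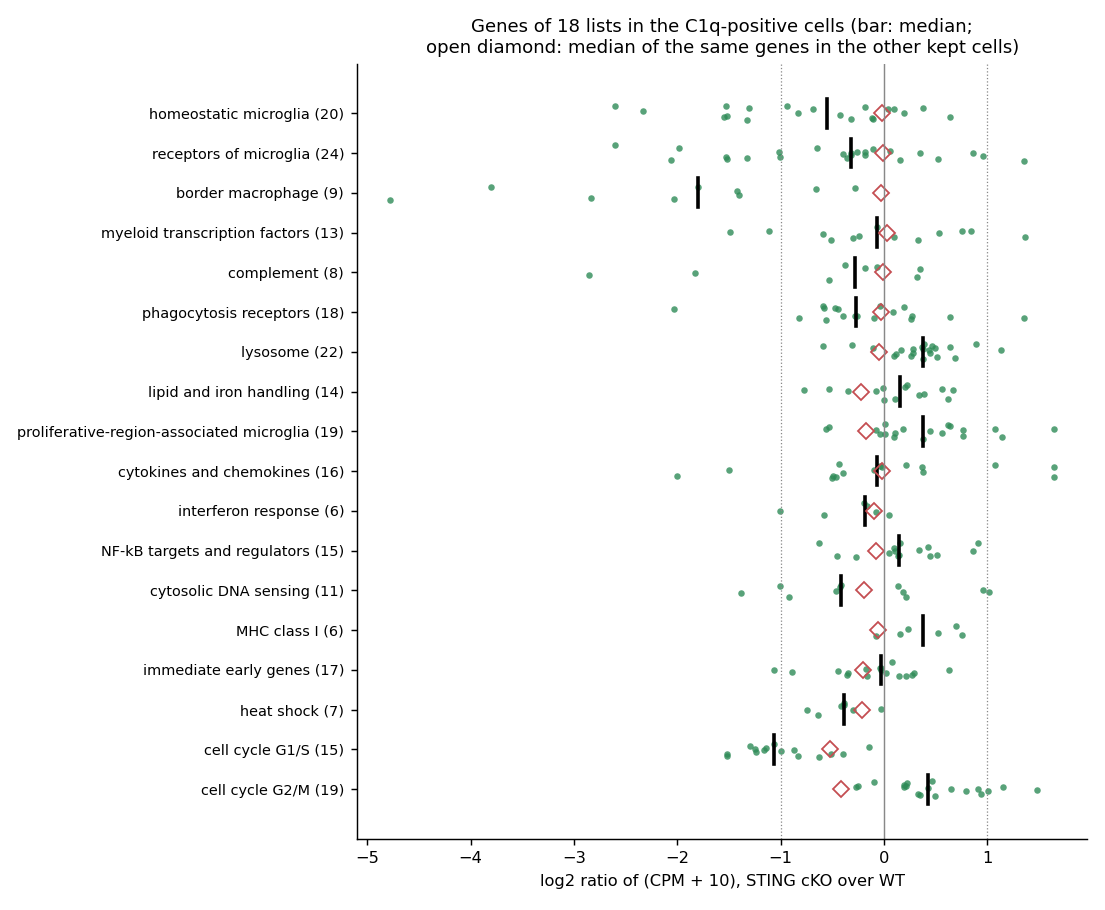
Log2 ratio of (CPM + 10), STING cKO over WT, for every measured gene of 18 lists, with the number measured in brackets. Points are genes, the bar is the median in the microglia and macrophages, and the open diamond is the median of the same genes in the other kept cells, where many of them are near 0 CPM. The homeostatic list has its median at -0.55 and the lysosome list at 0.38.

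Most transcription factors of the myeloid lineage were within 2-fold. Of 13 measured, 10 were within it, 1 was past 2-fold higher and 2 lower, Maf and Fli1, with a median of -0.07. Over all genes measured, 2.92% were higher and 7.36% lower, so that counts this small say little about the list. Maf, a basic leucine zipper factor of macrophages, had 317 and 69 UMIs, a log2 ratio of -1.54 (-1.94 to -1.16), against 0.29 in the other kept cells. Spi1, the factor PU.1 on which the lineage depends, had 332 and 226 UMIs and a ratio of 0.10 (-0.15 to 0.35), and Irf8 was at -0.31 (-0.70 to 0.07).

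Of 22 measured lysosomal genes, 1 was past 2-fold higher and 0 were past 2-fold lower, with a median of 0.38 against -0.05 for the same genes in the other kept cells. The summed level was 38853 and 52947 CPM. Ctsd, the aspartic protease of the lysosome, had 0, 41.1 and 163.6 UMIs per 10000 in the WT cells and 10.9, 88.5 and 163.1 in the cKO cells. The highest cells were alike, whereas 25 of 28 cKO cells lay above the WT median. The log2 ratio was 0.69 (0.63 to 0.75) for Ctsd, 0.52 (0.45 to 0.59) for Ctsb, 0.64 (0.56 to 0.73) for Ctsl, 0.44 (0.36 to 0.52) for Lgmn and 0.90 (0.75 to 1.05) for the tetraspanin Cd63. Cd68, the macrophage scavenger protein of late endosomes, went the other way at -0.60 (-0.87 to -0.35), as did Ctsc at -0.31 and Man2b1 at -0.11 on log2(CPM + 10).

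Trem2, the lipid receptor that drives phagocytosis, was at 0, 10.2 and 30.8 UMIs per 10000 in the WT cells and 3.28, 18.4 and 34.1 in the cKO cells. Of the cKO cells 24 of 28 lay above the WT median, and the log2 ratio was 0.64 (0.49 to 0.79). Apoe, a ligand of Trem2 that carries lipids, had a median of 47.2 and 88.0 UMIs per 10000 and a ratio of 0.62 (0.56 to 0.69), against -0.48 in the other kept cells. The ferritin subunit Fth1 was at 0.67 (0.58 to 0.76). None of the 14 lipid and iron handling genes measured was past 2-fold, and of 18 phagocytosis receptors 1 was higher (Axl) and 1 lower (Mrc1).

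**Figure D4:**
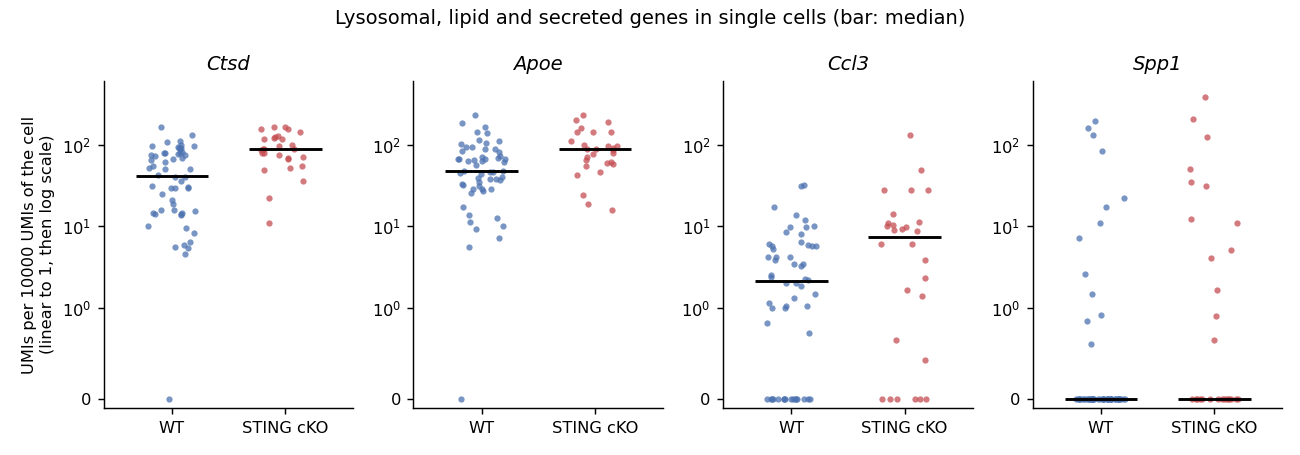
UMIs of Ctsd, Apoe, Ccl3 and Spp1 per 10000 UMIs of each cell in the WT and STING cKO cells, on an axis that is linear to 1 and logarithmic above. Each point is a cell and the bar is the median. Ctsd and Apoe are shifted over most cells, while Spp1 has a median of 0 in both libraries and a few very high cells.

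The differences in secreted signals rested partly on a few cells. Ccl3, a chemokine that attracts myeloid cells, had 0, 2.13 and 32.5 UMIs per 10000 in the WT cells and 0, 7.50 and 130.7 in the cKO cells. It was detected in 40 of 56 and 22 of 28 cells. The sums were 263 and 530 UMIs, a log2 ratio of 1.67 (1.45 to 1.89), of which 218 came from 1 cKO cell. Without the Ccl3 UMIs of the highest cell of each library, and with the totals kept as they were, the ratio was 1.15. Ccl4, its close relative, had 28 and 42 UMIs (1.24, 0.52 to 1.98), Ccl9 was at -0.53 (-0.93 to -0.13) and Ccl6 at 0.22 (-0.16 to 0.60). Spp1, osteopontin, was found in 13 of 56 WT cells and in 13 of 28 cKO cells, with 1208 and 1701 UMIs. The highest 3 cells of each library held 82.7% and 82.1% of them, with 489, 344 and 166 UMIs in WT and 899, 318 and 179 in the cKO library. The log2 ratio of the sums was 1.15 (1.04 to 1.26). It fell to 0.81 without the Spp1 UMIs of the highest cell of each library, with the totals kept. After thinning to 2000 UMIs, an Spp1 UMI was left in 15.7% (WT, 7.02 to 28.6%) and 25.9% (cKO, 11.1 to 46.3%), intervals that overlap.

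Of the 19 measured genes of the proliferative-region-associated list, 3 were past 2-fold higher (Spp1, Ccl3 and Ccl4) and 0 lower, with a median of 0.38. Igf1, a growth factor for oligodendrocytes and neurons, was at -0.04 (-0.44 to 0.35) and Gpnmb at 0.11 (-0.34 to 0.56), although 104 of the 105 WT UMIs of Gpnmb were in 1 cell. Among 16 cytokines and chemokines, Cxcl16 was also higher (2 and 13 UMIs, 7 of them in 1 cell), and Il18 (30 and 4 UMIs) and Ccl24 (20 and 0 UMIs, 12 of the WT ones in 1 cell) were lower. Il1b had 2 and 0 UMIs and Tnf 22 and 9 UMIs.

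Genes downstream of innate sensing were sparse. Of 24 interferon-response genes only 6 had 10 UMIs or more in the members, 0 were past 2-fold higher and 1 lower (Ifi204, 13 and 2 UMIs, with an interval that includes 0). Bst2, the interferon-induced tether of viruses, was at -0.17 (-0.61 to 0.25), and Isg15 had 3 and 0 UMIs. Of 15 measured NF-kB targets and regulators 0 were past 2-fold in either direction, with Nfkbia, the inhibitor that NF-kB induces, at 0.12 (-0.41 to 0.63). On the list of cytosolic DNA sensing, 11 were measured. Tmem173 and Ifi204 were past 2-fold lower and Aim2, which forms an inflammasome on DNA, higher with 23 and 34 UMIs (1.22, 0.41 to 2.05). Tmem173 and Ifi204 reached the minimum of 10 UMIs only through the WT library, where they were high. With a minimum of 30 UMIs they were not counted, and the median of the list was -0.12 in place of -0.42. Of the 6 measured class I genes of antigen presentation 0 were past 2-fold, with B2m at 0.53 (0.36 to 0.70) and H2-K1 at 0.81 (0.33 to 1.30). Cd74, the class II chaperone, had 66 and 13 UMIs, of which 50 were in 1 WT cell.

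Stress and activity genes gave a mixed picture. Of 17 immediate early genes, which dissociation can induce, 1 was past 2-fold, Egr1, with 211 and 62 UMIs (-1.11, -1.54 to -0.70), while Fos was at 0.08 (-0.19 to 0.36) and Junb at 0.15 (-0.16 to 0.46). On log2(CPM + 10) Egr1 was at -0.28 without the G2/M cells described below and turned to 1.49 under the stricter cell filter, with 12 and 10 UMIs left. None of the 7 heat shock genes was past 2-fold, and Hspa8 was at -0.75 (-0.90 to -0.60). Of 8 genes of the glucocorticoid response, Sgk1 (24 and 56 UMIs), Tsc22d3 (19 and 36) and Per1 (6 and 17) were past 2-fold higher and the metallothionein Mt2 (53 and 13) lower. Per1 was also higher in the other kept cells, by 1.93.

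Pf4, Lyve1, F13a1, Ms4a7 and Cd163, the markers most particular to border macrophages as background, came almost wholly from 3 WT cells. These had 142, 99 and 16 Pf4 UMIs and together 257 of the 263 Pf4 UMIs of the WT members, all 86 UMIs of Lyve1, 41 of F13a1, 22 of Ms4a7 and 11 of Cd163. They had 1 P2ry12 UMI and no Trem2 UMI in all. No cKO member had 10 Pf4 UMIs, and 3 of 56 (5.36%, 1.12 to 14.9%) against 0 of 28 (0 to 12.3%) have intervals that overlap, where the limit of 3 cells for a count of 0 is 10.7%. The low ratios of these 5 genes rest on those cells, and several of the genes passed the minimum of 10 UMIs only through the WT library. Mrc1, a mannose receptor, was different. It was found in 31 WT and 11 cKO cells, with 169 and 23 UMIs, and 54 of the WT ones were in the 3 cells. Dab2 had 189 and 42 UMIs, 81 of the WT ones in the 3 cells. Without those cells Mrc1 on log2(CPM + 10) was at -1.55 and Gpr34 at -2.38. Without all members of at least 5 border-macrophage UMIs Mrc1 was at 0.60, with 5 and 9 UMIs left. Mrc1 is on the list that makes this cut, so cells were removed for their Mrc1 UMIs. The value therefore cannot show a change of direction.

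**Figure D5:**
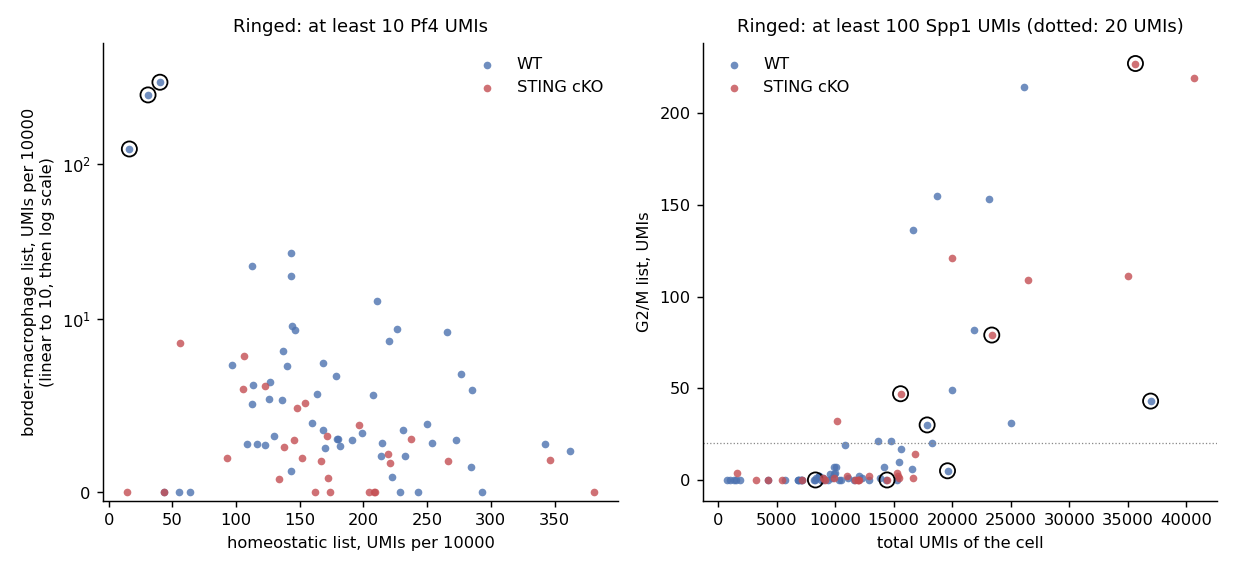
Left, UMIs of the border-macrophage list against those of the homeostatic list per 10000 UMIs of each cell, with the 3 WT cells of at least 10 Pf4 UMIs ringed, which stand apart at the top. Right, UMIs of the G2/M list against total UMIs per cell, with the cells of at least 100 Spp1 UMIs ringed and the line at 20 UMIs dotted.

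A split of the members at 5 UMIs of the border-macrophage list gave 31 of 56 WT and 9 of 28 cKO cells above it, but 13 and 5 cells lay at 4 to 6 UMIs, and the upper cells were deeper (median 14749 and 19977 UMIs against 8361 and 11011). It is a range of a score and not a cell type. After thinning to 2000 UMIs, 3 of 51 WT and 0 of 27 cKO cells still had 5.

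Transcripts of dividing cells were concentrated in a part of the members of both libraries. At least 20 UMIs of the G2/M list were found in 12 of the 56 WT members (21.4%, 11.6 to 34.4%) and in 8 of the 28 cKO members (28.6%, 13.2 to 48.7%), which held 92 of 93 and 84 of 85 UMIs of the proliferation marker Mki67. These cells were deeper, with a median of 19363.5 and 24922 UMIs against 9462 and 11789.5. After thinning, at least 5 UMIs of the list were left in 6 of 51 WT cells (11.8%, 4.44 to 23.9%) and in 8 of 27 cKO cells (29.6%, 13.8 to 50.2%). The intervals overlapped.

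Genes of the early and the late cycle differed in direction. Of 15 measured G1/S genes 8 were past 2-fold lower and 0 higher, with a median of -1.06, against -0.52 in the other kept cells. They included the replicative helicase genes Mcm2 (58 and 13 UMIs), Mcm4 (53 and 9), Mcm6 (82 and 21) and Mcm7 (71 and 13), while Pcna was at -0.16 (-0.72 to 0.38). Of 19 G2/M genes 3 were past 2-fold higher and 0 lower, with a median of 0.43 against -0.41 in the other kept cells: cyclin B1 (Ccnb1, 41 and 80 UMIs), survivin (Birc5, 88 and 129) and the kinesin Cenpe (28 and 40). Without the members of at least 5 border-macrophage UMIs, which left 25 WT and 19 cKO members, the G2/M median was 2.54. That cut removed all 12 WT members of at least 20 G2/M UMIs but left cKO members with 32 and 109 such UMIs. The median of 2.54 thus has no WT cell at that limit to compare with and cannot show a stronger difference. Birc5 turned to -2.26 under the stricter cell filter, with 2 and 0 UMIs left. Of the G1/S genes 4 were past 2-fold lower without the G2/M cells, 5 without the members of at least 5 border-macrophage UMIs and 0 under the stricter cell filter.

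Levels of a few genes were compared between the cells with at least 20 G2/M UMIs, a limit chosen after seeing the data, and the others, with no test. P2ry12 was at 1023 CPM in the G2/M cells and 1773 CPM in the others of the WT library, and at 299.7 and 868 CPM in the cKO library. The immediate early list stood at 1806 and 4643 CPM in the WT and at 1049 and 5625 CPM in the cKO library. Spp1 went the other way, with 3371 and 861 CPM in the WT and 6583 and 1573 CPM in the cKO library, but these sums rest on a few cells, and only 5 of 12 and 4 of 8 G2/M cells had any. Gpr34 was lower in the cKO library in both kinds of cell, at 652 and 140.2 CPM in the G2/M cells and 917 and 167 CPM in the others. The P2ry12 ratio without the G2/M cells was -1.02 on log2(CPM + 10).

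Over all genes, on the lists or not, the 10 lowest and 10 highest ratios were taken, from genes that reached 30 UMIs in either genotype. Genes described above are among them: Gpr34, P2ry13, C5ar1, Gpr84, Pf4, Lyve1 and F13a1 on the low side and Ccl3 on the high side. The Poisson intervals of the libraries also had to lie apart. A ratio interval that excludes no difference therefore follows from the choice and is no separate support, which holds for the genes described above too. P2ry13, C5ar1, Gpr84, Pf4, Lyve1, F13a1, Pnp, Hells, B930036N10Rik, Colec12, Rgs1, Socs6, Ccny and Prcp reached 30 UMIs only in the library where they were high. Their being listed supports nothing by itself. Pnp, the purine nucleoside phosphorylase that degrades inosine and guanosine, had 260 and 27 UMIs (-2.61, -3.24 to -2.04) but was lower in the other kept cells too, by 1.78 on the log2 scale. Hells, a chromatin helicase of replicating cells, had 33 and 1 UMIs, and the antisense transcript B930036N10Rik, which overlaps Alyref2 on the other strand, 94 and 7. On the other side, Colec12, a scavenger receptor, had 13 UMIs in 5 WT cells and 63 UMIs in 20 cKO cells (2.93, 2.06 to 3.92), with -1.39 in the other kept cells. Rgs1, a regulator of chemokine receptor signalling, had 13 and 41 UMIs (2.31, 1.38 to 3.34), with -0.90 in the other kept cells. Socs6 (12 and 46), Ccny (23 and 58) and Prcp (15 and 41) were higher as well. Dyrk2, Arrdc4 and Gm8730, a processed pseudogene that can share reads with its parent gene, were higher by 2.58, 2.16 and 4.31 on the log2 scale in the members and by 2.19, 2.66 and 4.62 in the other kept cells.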

How the data were processed

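Single-cell RNA sequencing of 1 WT and 1 STINGf/f;Nestin-Cre library (10x Chromium) was analysed. The deposited values are raw UMI counts per gene and barcode, which the authors made with Cell Ranger. The submitters' processing notes name STAR, Cell Ranger 2, Seurat and mm9, whereas the matrix header names Cell Ranger 3.0.1. Total UMIs were 69554624 in 10715 WT barcodes and 67448785 in 9198 cKO barcodes. A deposited matrix that combines the libraries, with 94.5% of the cKO UMIs, was used as an alternative only.

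Counts were summed over the members of each library and divided by their total (CPM). Poisson intervals, Clopper-Pearson intervals for shares and conditional binomial intervals for ratios were exact, at 95%, and cover counting error only. Those for shares take the cells of a library as independent draws. A count of 0 was read as a limit of 3 UMIs per library (4.51 CPM in the WT and 7.10 CPM in the cKO members). With 1 library per genotype no test was made. Ratios over lists used log2(CPM + 10), which understates the difference of low genes, for genes with at least 10 UMIs. Genes were named when they chose the cells, were among the 20 most enriched, the 10 highest or 10 lowest ratios with at least 30 UMIs and Poisson intervals that did not overlap (without mitochondrial, haemoglobin and Y-linked genes, Xist and Tsix), the 4 with most UMIs of a list, or list members past 2-fold. A few further list members named here, such as Tmem119, Sall1, Igf1 and Tnf, were chosen after their values were seen. The members and lists were chosen with earlier results of these data known. Doublets were scored with Scrublet (scanpy 1.11.5). Its automatic threshold marked 165 WT and 0 cKO cells, so a score above 0.25 was used in both, which marked 165 and 106 kept cells and 3 and 0 members. These were kept, and left out in an alternative. Cells were thinned to 2000 UMIs to compare shares. The ratio calculation was tested on simulated Poisson counts, the model that its interval assumes. That checks the code only and leaves out the unevenness of counts over cells. Analyses used Python 3.11.15, numpy 2.4.6, scipy 1.17.1, pandas 2.3.3, R 4.3.3, edgeR 4.0.16 and DESeq2 1.42.0, the last pair for scaling factors only. Gene positions came from GENCODE (GRCm38), which held 27645 of 27998 gene IDs, and promoters from RefSeq (GRCm38.p6). These positions are not on the mm9 build of the notes. A few genes that the rule names are not reported here, though the counts over lists include them.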

Additional observations from a re-analysis of the deposited data

How the results depend on the processing

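Of 928 values of 58 genes under the alternatives, 828 stayed within the counting interval of the reported value and 96 left it, while the remaining 4 turned the sign of a gene past 2-fold. Gpr84, Lyve1 and F13a1 had no UMI in the cKO members and so no bounded interval. Their values were counted among the 828 whatever they were. With at least 1000 genes and at most 5% mitochondrial UMIs, 5 WT and 2 cKO cells were left. The WT cells left included a cell with 142 Pf4 and 0 P2ry12 UMIs and a scored doublet with 3190 UMIs of erythroid genes. P2ry12 was then at 0.20, Birc5 at -2.26, Egr1 at 1.49, Gpr34 at -1.84, Cx3cr1 at -0.30 and Spp1 at 1.38, and 238 genes were past 2-fold lower, with 2 homeostatic genes, 0 receptors and 0 G1/S genes. The list medians turned there from -0.55 to 0.46 (homeostatic) and from -0.32 to 0.20 (receptors), with Tmem119 at 1.45 and Sall1 at 1.98. Without the members of at least 5 border-macrophage UMIs, the share difference was -0.057 points, Mrc1 was at 0.60, Spp1 at 2.22 and the median of the G2/M list at 2.54 in place of 0.43, and 372 genes were higher and 5 G1/S genes lower. That cut uses Mrc1 itself. It removed all 12 WT cells of at least 20 G2/M UMIs but left cKO cells with 32 and 109. It also removed all 4 cells of each library with at least 100 Spp1 UMIs. Leaving out the G2/M cells, chosen after seeing the data, gave -1.02 for P2ry12, 0.86 for Spp1, 2.08 for Ccl3 and 4 lower G1/S genes. Leaving out a gene's UMIs in its highest cell of each library, with the totals kept, was also chosen after seeing the data. It gave 0.81 for Spp1 and 1.13 for Ccl3. Spp1 was at 1.03 without doublets and at 1.44 as the mean of cell CPM, which put 407 genes past 2-fold higher. A pseudocount of 1 CPM gave 534 genes higher and 1106 lower, and a minimum of 30 UMIs 129 and 279. The difference in the share of cells with a UMI was -39.2 points for Gpr34 and -20.0 for P2ry13 after thinning, and -12.5 and -51.8 without it. The cause of these shifts was not tested, except that by construction fewer cells or genes entered and the cuts removed the cells named above. TMM scaling moved ratios of CPM by 0.04, and those on log2(CPM + 10) by less. No paired analysis was possible because each genotype had 1 library, and for the same reason no library could be left out. Depth limits genes with few UMIs: a gene absent from the cKO members may lie at up to 7.10 CPM.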

Other observations

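Ligands of microglial receptors were measured in the other kept cells. Cx3cl1, the fractalkine bound by CX3CR1, was at 11.2 CPM in the WT and 10.6 CPM in the cKO library, and Csf1, a ligand of CSF1R, at 5.38 and 4.02 CPM. Cd200, whose receptor is CD200R1, was at 174 and 146 CPM, and Cd47, the ligand of SIRPA, at 156 and 171 CPM. Tgfb1 was at 16.2 and 4.98 CPM and Tgfb2 at 39.4 and 64.9 CPM. Of 5 measured ligands on the list, 0 were past 2-fold in the members themselves.

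Over cells with at least 2000 UMIs, P2ry12 and the immediate early list correlated with r = 0.36 (Spearman's rho 0.43) in 51 WT cells and r = 0.76 (rho 0.59) in 27 cKO cells, and P2ry12 and the G2/M list with r = -0.33 (rho -0.38) and -0.35 (rho -0.30). The cells of a library share its depth and preparation. P2ry12 and Gpr34 correlated with r = 0.38 (rho 0.37) in the WT cells and r = 0.02 (rho 0.22) in the cKO cells, where Gpr34 was sparse. Of the 4 cells of each library with at least 100 Spp1 UMIs, 2 WT and 3 cKO cells had at least 20 UMIs of the G2/M list.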
